A study of Mus musculus with 8 samples.

Results

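The genes *Ccl1*, *Ccl3*, *Ccl4*, *Ccl5*, *Ccl20*, *Ccl22*, *Xcl1*, *Cxcl9* and *Cxcl10* encode secreted chemokines that CD4+ T cells are known to make. They were taken by name from the deposited expression table, in which they are 9 of 52636 rows. The libraries came from a model of excess CD27 engagement and comprised 4 groups of 2 libraries, 8 in all. Control libraries were made from CD27+/- Foxp3 reporter mice and CD70Tg libraries from CD11c-Cd70tg;CD27+/- Foxp3 reporter mice, so that both were heterozygous for CD27, the receptor of CD70. The transgene puts CD70 under the CD11c promoter, which is active mainly in dendritic cells and not in most T cells. In each genotype, RNA was taken from an equal number of sorted CD4+ Foxp3- cells (conventional T cells, Tconvs) and CD4+ Foxp3+ cells (regulatory T cells, Tregs) of young adult mice. The sample descriptions call the controls WT and the columns of the table call them KO, and they were taken as the CD27+/- controls. Nothing in the labels says whether the libraries of a group came from separate mice or from pools, so that p-values measure the spread between these libraries, which may be technical.

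Chemokines are small proteins that steer leukocytes along gradients by binding G protein-coupled receptors. CCL3, CCL4 and CCL5 are inflammatory products of activated and cytotoxic T cells, while CXCL9 and CXCL10 are interferon-inducible ligands of CXCR3, the receptor of type 1 T cells. XCL1 binds XCR1 on cross-presenting dendritic cells, CCL1 binds CCR8, CCL22 binds CCR4, and CCL20 binds CCR6.

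Values are reads per gene scaled by the authors to 20 M per library and rounded up, so that 20 stands for 1 read per M. Reads on genes, estimated from the step between the low values of a library, ranged from 1.91 M in the first CD70Tg Treg library to 33.28 M in the second CD70Tg Tconv library. The value given by 3 reads, the floor below which a value was not told from 0, ranged from 1.8 in that Tconv library to 31.3 in that Treg library. Floors and exact Poisson intervals of reads cover counting error only, while the intervals of limma rest on the spread between libraries. *Foxp3*, the lineage factor of Tregs, lay between 19769 and 21367 in the Treg libraries and between 1039 and 1497 in the Tconv libraries. Of 6 T cell markers and 5 Treg markers tested, 0 and 0 were called in either subset between CD70Tg and control mice (limma).

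Of the 9 ligands, 6 reached the minimum for testing, a value of 60 in at least 2 libraries, and *Ccl1*, *Ccl20* and *Ccl22* did not. In CD70Tg Tconvs, *Ccl3*, *Ccl4* and *Ccl5* rose, and in CD70Tg Tregs the same 3 genes rose together with *Xcl1* and *Cxcl9*. In Tconvs 3 of the 6 tested ligands were called higher, where 4.07% of the 12798 tested genes were, and in Tregs 5 of the 6, where 2.52% were. The calls of *Xcl1* and *Cxcl9* in Tregs were both lost without the first control Treg library and without the first CD70Tg Treg library. They were also both lost with no minimum value and with limma-voom on estimated reads. Each of these settings left 3 of the 6. *Ccl3*, *Ccl4* and *Cxcl9* passed the minimum only through their CD70Tg libraries. These counts thus describe the ligands that passed, and the shares of all genes are printed as background without a test between them. With a value above 10 required in every library, *Ccl5* and *Cxcl10* were left to test, and *Ccl5* was called in both subsets. The number of ligands called lower was 0 in both subsets, where 0.57% of all genes were in Tconvs and 1.08% in Tregs. Calls between groups required a limma adjusted p-value under 0.05 with a log2 fold change above 1 or below -1, on the scale of log2(value + 5), which understates the change of low genes. As the cells were sequenced in bulk, a change in the number of cells that make a ligand and a change in its RNA per cell cannot be told apart.

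**Figure D1:**
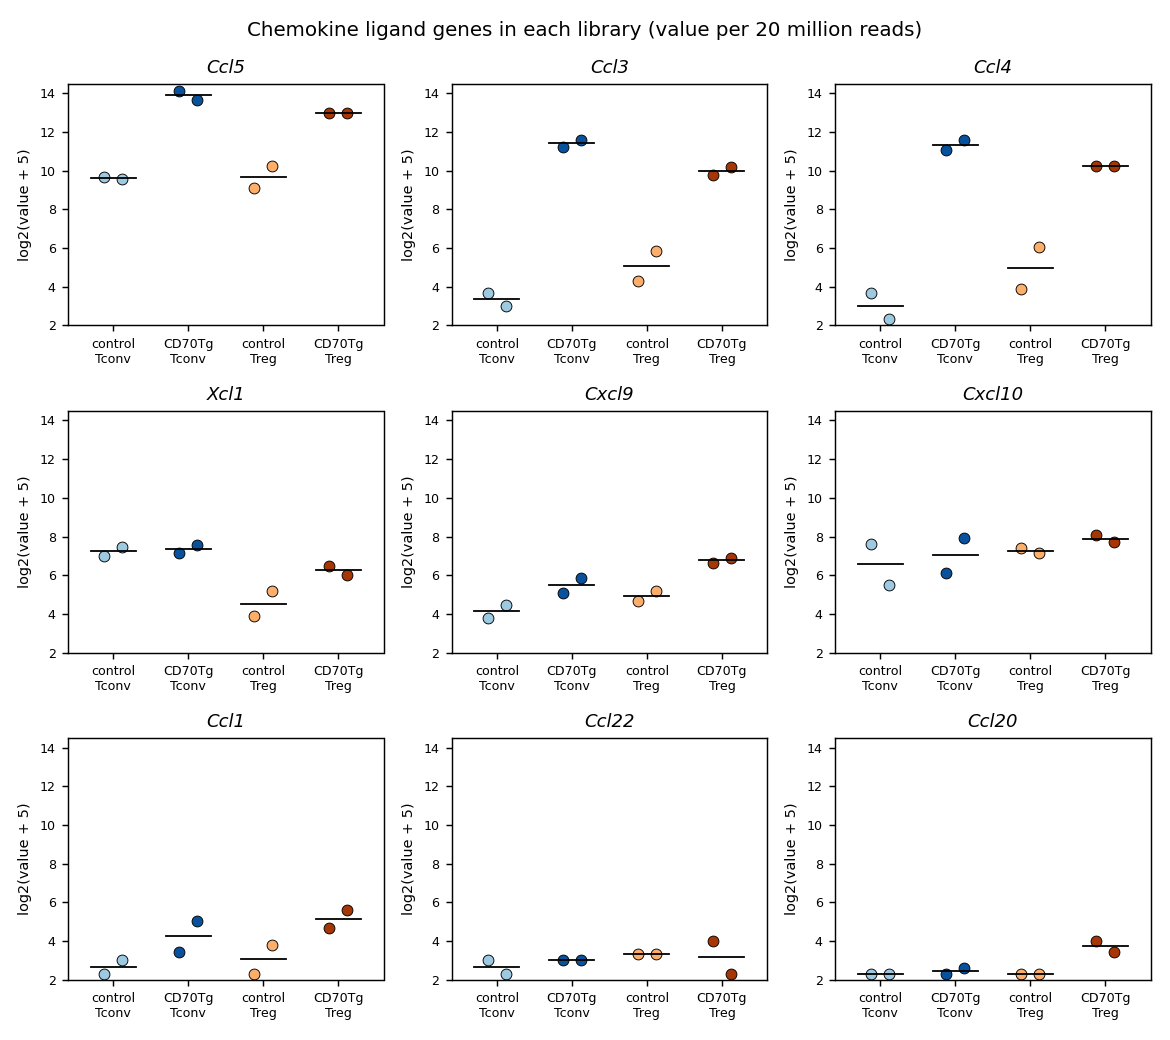
Value of each chemokine ligand gene in each library, as log2(value + 5) with values per 20 M reads. Points are libraries, with 2 in each group, and bars are the means of the group. The CD70Tg libraries of *Ccl5*, *Ccl3* and *Ccl4* lie above their controls in both subsets, while *Ccl22* and *Ccl20* stay at low values throughout.

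*Ccl5* (ENSMUSG00000035042) encodes RANTES, a late product of activated T cells that draws T cells and monocytes. It lies on the reverse strand of chromosome 11 of mm10, from 83525778 to 83530518. Its values were 823 and 743 in control Tconvs, 18091 and 12896 in CD70Tg Tconvs, 539 and 1226 in control Tregs, and 8077 and 8124 in CD70Tg Tregs. In both subsets the CD70Tg libraries were all above the controls, and each *Ccl5* value rested on at least 111 estimated reads. The group means were 783 ± 56.6, 15500 ± 3670, 882 ± 486 and 8100 ± 33.2 in the same order (SD, n = 2 each). *Ccl5* rose 19.8-fold by the means in Tconvs, a log2 fold change of 4.28 with a standard error of 0.25 and an adjusted p = 5.5e-09 (limma). In Tregs it rose 9.18-fold, a log2 fold change of 3.31 with a standard error of 0.25 and an adjusted p = 1.1e-06. The difference between these responses, -0.97 (standard error 0.35), did not pass the threshold (adjusted p = 0.29).

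*Ccl5* was the most abundant of the ligands. It made up between 66.0% and 78.9% of the summed value of the 9 ligands in every library, in control and CD70Tg mice alike. The sum itself was 1167 and 978 in control Tconvs, 22917 and 19526 in CD70Tg Tconvs, 764 and 1553 in control Tregs, and 10642 and 10923 in CD70Tg Tregs. Per kb of the principal transcript, the mean level of *Ccl5* in control Tconvs was 1470, and the next in order were *Xcl1* at 282 and *Cxcl10* at 106. In CD70Tg Tconvs the mean levels per kb were 29100 for *Ccl5*, 3970 for *Ccl4*, 3570 for *Ccl3*, 309 for *Xcl1* and 140 for *Cxcl10*. *Ccl3* and *Ccl4* thus stood below *Xcl1* and *Cxcl10* per kb in control Tconvs and above them in CD70Tg Tconvs. In Tregs the mean levels per kb of *Ccl4* and *Ccl3* were 54.5 and 44.4 in controls and 1830 and 1330 in CD70Tg mice.

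*Ccl3* (ENSMUSG00000000982) encodes MIP-1 alpha, an inflammatory chemokine that acts on CCR1 among other receptors. It lies on the reverse strand of chromosome 11, from 83647844 to 83649355. Its values were 8 and 3 in control Tconvs, 2415 and 3050 in CD70Tg Tconvs, 15 and 53 in control Tregs, and 868 and 1175 in CD70Tg Tregs. All CD70Tg libraries were far above the controls, whose values stood for an estimated 7 and 1 reads in Tconvs and 3 and 12 reads in Tregs. Both control Tconv libraries together held an estimated 8 reads (95% exact Poisson interval 3.45 to 15.8) and both control Treg libraries 15 reads (8.4 to 24.7). *Ccl3* rose in Tconvs by a log2 fold change of 8.06 (95% interval 7.22 to 8.90, adjusted p = 1.2e-09, limma). In Tregs it rose by 4.90 (4.06 to 5.74, adjusted p = 2e-06). The ratios of the means, 497 and 30.0, rest on these few control reads.

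*Ccl4* (ENSMUSG00000018930), which encodes the related chemokine MIP-1 beta, starts 13.2 kb from the start of *Ccl3* on the other strand, from 83662584 to 83664683. Its values were 8 and 0 in control Tconvs, 2170 and 3068 in CD70Tg Tconvs, 10 and 62 in control Tregs, and 1213 and 1197 in CD70Tg Tregs. As for *Ccl3*, all CD70Tg libraries were far above the controls, of which the second Treg library was the highest. Both control Tconv libraries held an estimated 7 reads of *Ccl4* (95% exact Poisson interval 2.81 to 14.4) and both control Treg libraries 16 (9.15 to 26.0). *Ccl4* rose by a log2 fold change of 8.32 among Tconvs, with a 95% interval of 7.22 to 9.43 (limma, adjusted p = 1.5e-08), and of 5.25 among Tregs, with an interval of 4.15 to 6.36 (adjusted p = 1.9e-05).

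The mean log2 level of *Ccl3* was higher in Tregs than in Tconvs of control mice and lower in Tregs than in Tconvs of CD70Tg mice. The log2 difference between Tregs and Tconvs was 1.74 in controls (adjusted p = 0.002, limma, a call lost under 2 of 13 settings), where 14.7% of all genes were called higher in Tregs. It was -1.42 in CD70Tg mice (adjusted p = 0.0089, a call lost under 3 of 13 settings), where 4.94% of all genes were called lower. The response of *Ccl3* was larger in Tconvs, with a difference between the responses of -3.16 on the log2 scale (standard error 0.56, 95% interval -4.35 to -1.97, adjusted p = 0.0097). For this difference a call required only an adjusted p-value under 0.05, with no minimum fold. Of the 6 tested ligands, 1 was called with the larger response in Tconvs, where 0.828% of all genes were. This ligand, *Ccl3*, passed the minimum only through its CD70Tg libraries. *Ccl4* had a like difference of -3.07 with a larger standard error, 0.74, that did not pass (adjusted p = 0.062). The call for *Ccl3* was lost with no minimum value (adjusted p = 0.34), without the second CD70Tg Tconv library (0.077), without the first CD70Tg Treg library (0.058) and on estimated reads with limma-voom (-3.93, adjusted p = 0.12). For *Ccl4* a call was gained without the first control Tconv library (adjusted p = 0.0069) and without the first control Treg library (adjusted p = 0.0011).

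**Figure D2:**
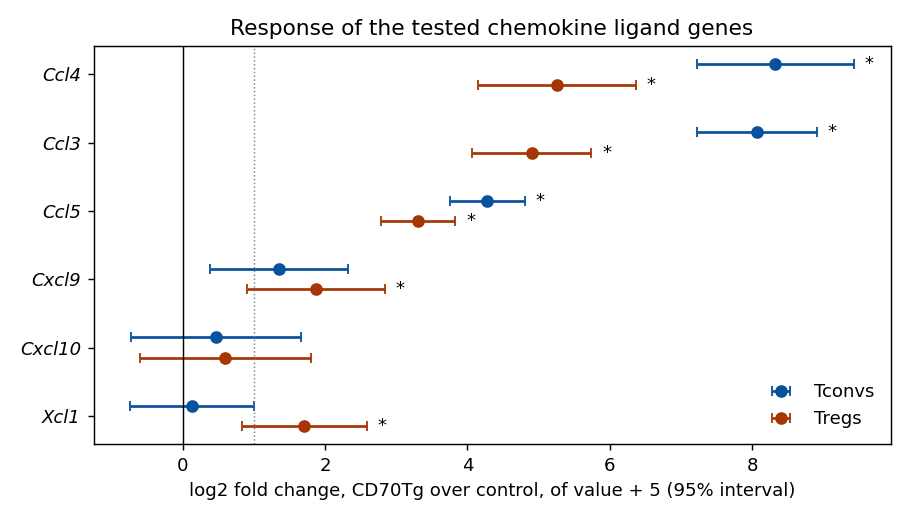
Log2 fold change of value + 5 between CD70Tg and control libraries for the 6 tested ligands (horizontal axis), in Tconvs (blue) and Tregs (red). Points are limma estimates over 2 libraries in each group and bars their 95% intervals, asterisks mark called changes, and the dotted line marks a log2 fold change of 1. *Ccl4* and *Ccl3* lie farthest to the right in both subsets, and the intervals of *Cxcl10* cross 0 in both.

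*Ccl3* and *Ccl4* followed each other across the libraries. The ratio of *Ccl3* to *Ccl4* was 1.11 and 0.994 in CD70Tg Tconvs and 0.716 and 0.982 in CD70Tg Tregs. Their sum was 25.3% and 47.4% of *Ccl5* in CD70Tg Tconvs, while in control Tconvs it rested on too few reads to give a share. In Tregs it was 4.64% and 9.38% in controls, again on few reads, and 25.8% and 29.2% in CD70Tg mice. As a description over the 8 libraries, which share the difference between the genotypes, the gene most like *Ccl3* was *Ccl4* (Pearson r = 0.997), followed by *Enpp6* (0.993) and *Ret* (0.988). *Ccl5* was most like *Gm16702* (r = 0.985), *Ccl3* (0.979) and *Rhob* (0.976), and after *Ccl3* those most like *Ccl4* were *Enpp6* (0.989) and *Gm16702* (0.982).

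The order of the 4 groups was the same for *Ccl3*, *Ccl4* and *Ccl5*, with CD70Tg Tconvs highest, followed by CD70Tg Tregs, control Tregs and control Tconvs. For *Ccl3* all neighbours in this order were called different. For *Ccl4*, CD70Tg Tregs and Tconvs were not (log2 difference -1.10, adjusted p = 0.10, limma), although this difference was called under 5 of 13 settings, limma-voom among them (-1.14, adjusted p = 0.0029). In controls, *Ccl4* was higher in Tregs than in Tconvs (1.98, adjusted p = 0.0057). Both calls between control Tregs and Tconvs rest on the second control Treg library, without which the log2 difference was 0.97 for *Ccl3* and 0.90 for *Ccl4*. The call of *Ccl3* was also lost with a pseudocount of 20 (0.99), and that of *Ccl4* without the second control Tconv library (1.29, adjusted p = 0.067) and with no minimum value (adjusted p = 0.096). For *Ccl5*, the 2 control groups were not told apart (0.06, adjusted p = 0.87), and CD70Tg Tregs were below CD70Tg Tconvs by less than the fold set for a call (-0.91, adjusted p = 0.0076, and -1.16 without the second CD70Tg Tconv library, adjusted p = 0.0081).

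The neighbourhood of these genes on chromosome 11 was examined within 250 kb of the starts of *Ccl5*, *Ccl3* and *Ccl4*. Of 33 annotated genes of the table considered there, 7 were tested. Among all tested genes, 4.07% were called higher in Tconvs and 2.52% in Tregs. Of the 4 tested genes of the stretch that were not ligands of the list, 1 was called in Tconvs and 1 in Tregs, in both cases *Heatr9*. This gene starts at -127.2 kb from the start of *Ccl3* along the chromosome and lies next to *Ccl5*. *Heatr9* was at 6 and 3 in control Tconvs, 78 and 157 in CD70Tg Tconvs, 0 and 14 in control Tregs, and 115 and 174 in CD70Tg Tregs. All CD70Tg libraries were above the controls. For *Heatr9* limma gave a log2 fold change of 3.63 for Tconvs (adjusted p = 0.00052) and 3.91 for Tregs (adjusted p = 0.00054). *Heatr9* passed the minimum only through its CD70Tg libraries, so that its call is a description. Its control values lay near or under the floors of their libraries, 3.1 and 6.3 in Tconvs and 14.6 and 13.1 in Tregs. *Ap2b1*, *Taf15* and *Heatr6* had log2 fold changes between -0.06 and 0.19 in both subsets. The chemokine genes *Ccl9* and *Ccl6* of the same stretch stayed under the minimum, at 0 to 11 and at 15 to 74.

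**Figure D3:**
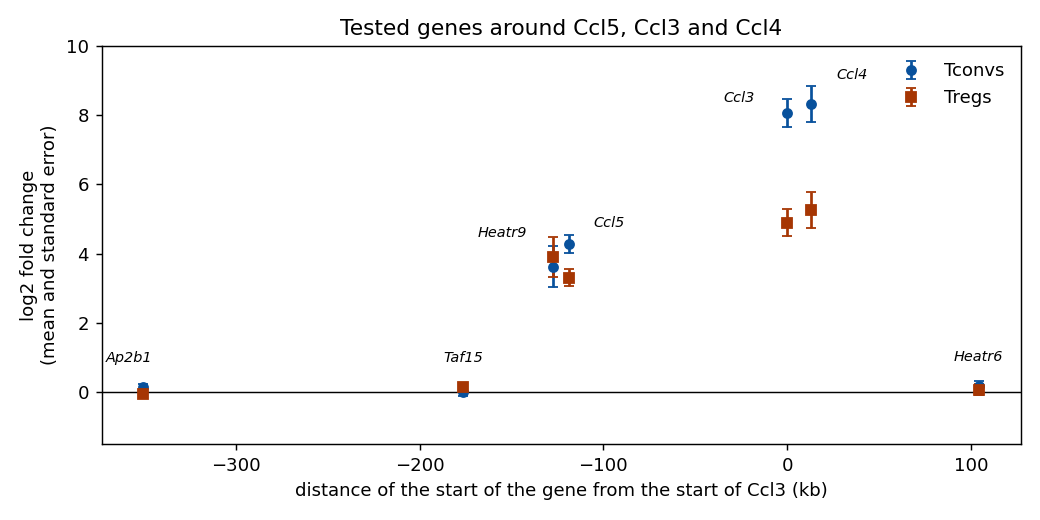
Log2 fold change between CD70Tg and control libraries (vertical axis, limma estimate with standard error, 2 libraries in each group) of 7 tested genes around *Ccl5*, *Ccl3* and *Ccl4*, against the distance of their starts from that of *Ccl3* in kb. The 3 ligands and *Heatr9* lie above 3 in both subsets, and the other 3 genes shown lie between -0.06 and 0.19.

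The stretch of 250 bases before the start of *Ccl3* is shown because the response of this gene was called different between the subsets. The sequence is from RefSeq (GRCm38.p6), at chr11:83649379-83649628 on the reverse strand, printed 5′ to 3′ with the RefSeq start of the gene, 83649378, after its last base. This start lies 23 bases before the GENCODE start that gives the position of the gene above, and positions in the window are counted from the RefSeq start. Capitals mark a match to the core of the site of NFAT, the factor activated by T cell receptor signalling, searched as GGAAAA on both strands.
Ccl3: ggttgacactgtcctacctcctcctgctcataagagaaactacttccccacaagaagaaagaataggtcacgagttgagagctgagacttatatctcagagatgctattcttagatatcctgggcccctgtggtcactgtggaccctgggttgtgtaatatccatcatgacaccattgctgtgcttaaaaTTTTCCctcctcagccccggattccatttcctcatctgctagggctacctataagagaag
The match spans bases -60 to -55 from the start and reads on the opposite strand, and 20.4% of the 32544 promoter windows of the same length hold such a match. Searches for an NF-kB site (GGG, any 3 bases, TTCC), an AP-1 site (TGANTCA), a T-box site (AGGTGTGA), a gamma-interferon activation site (TTCNNNGAA) and an interferon-stimulated response element core (GAAA, any 2 bases, GAAA) found no match in this window. Of the 9 ligands, 7 matched by symbol in the table of promoters, and *Ccl4* and *Ccl5* were not among them. A match is a description of the letters and not a site at which binding was measured.

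*Xcl1* (ENSMUSG00000026573) encodes lymphotactin, the ligand that attracts XCR1-bearing dendritic cells. It lies on the reverse strand of chromosome 1, from 164931644 to 164935527. Its values were 123 and 172 in control Tconvs, 139 and 184 in CD70Tg Tconvs, 10 and 31 in control Tregs, and 84 and 60 in CD70Tg Tregs. The Tconv groups overlapped, and the CD70Tg Tregs were above the control Tregs but below every Tconv library. In Tconvs the log2 fold change of *Xcl1* was 0.13 (95% interval -0.74 to 1.01, adjusted p = 0.92, limma). In Tregs it rose by 1.71 (0.84 to 2.59, adjusted p = 0.018), from an estimated 2 and 7 reads to 8 and 11 reads. The call in Tregs was lost without the first control Treg library (1.08, adjusted p = 0.25), without the first CD70Tg Treg library (adjusted p = 0.12) and with limma-voom on estimated reads (adjusted p = 0.25). The difference between the responses was 1.58 (standard error 0.59) and did not pass the threshold (adjusted p = 0.30).

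*Xcl1* was the 1 tested ligand called lower in control Tregs than in control Tconvs. The log2 difference, Tregs minus Tconvs, was -2.70 (adjusted p = 6.8e-05, limma), where 4.43% of all genes were called lower. In CD70Tg mice the difference was -1.12 (adjusted p = 0.039), and this call was lost under 8 of 13 alternative settings. In the order of the 4 groups, neither CD70Tg and control Tconvs (adjusted p = 0.92) nor control Tconvs and CD70Tg Tregs (-0.98, adjusted p = 0.054, with 6.57% of all genes called lower) were told apart. The antisense gene *Gm20743* covers 18.7% of the exon length of *Xcl1*, and reads of the pair cannot be told apart unless strand was used in counting, which is not given in the sources used here. Its values were 47 and 67 in control Tconvs, 67 and 73 in CD70Tg Tconvs, 5 and 9 in control Tregs, and 21 and 22 in CD70Tg Tregs. It was among the 3 genes most like *Xcl1* over the 8 libraries (r = 0.966), after *Daam1* (0.978) and *Zfp335os* (0.967).

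*Cxcl9* (ENSMUSG00000029417) and *Cxcl10* (ENSMUSG00000034855) encode CXCR3 ligands whose genes are induced by interferons in many cell types, macrophages and dendritic cells among them. They lie on the reverse strand of chromosome 5, *Cxcl9* from 92321347 to 92328079 and *Cxcl10* from 92346638 to 92348889. The 250 bases before their starts are shown since both genes are interferon-inducible and 1 of them, *Cxcl9*, was called in Tregs. They are from RefSeq (GRCm38.p6), at chr5:92328080-92328329 for *Cxcl9* and chr5:92348890-92349139 for *Cxcl10*, on the reverse strand and 5′ to 3′, with all matches to the 6 motifs in capitals.
Cxcl9: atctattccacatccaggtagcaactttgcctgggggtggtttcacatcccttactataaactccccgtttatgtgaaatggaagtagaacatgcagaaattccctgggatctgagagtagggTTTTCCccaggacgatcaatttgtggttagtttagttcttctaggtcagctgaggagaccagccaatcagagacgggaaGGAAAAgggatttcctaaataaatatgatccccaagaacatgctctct
Cxcl10: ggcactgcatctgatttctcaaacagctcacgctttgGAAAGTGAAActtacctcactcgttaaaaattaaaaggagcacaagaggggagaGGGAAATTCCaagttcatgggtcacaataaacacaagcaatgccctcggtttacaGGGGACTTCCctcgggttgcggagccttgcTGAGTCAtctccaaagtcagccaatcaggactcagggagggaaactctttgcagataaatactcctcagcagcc
In *Cxcl9* the capitals are matches to the NFAT core at bases -127 to -122, on the opposite strand, and at -48 to -43. In *Cxcl10* they are, from left to right, the interferon-stimulated response element core at -213 to -204, NF-kB sites at -159 to -150 and -104 to -95, and an AP-1 site at -74 to -68. Among all windows, 3.0% hold a match to the interferon-stimulated response element core, 4.6% to the NF-kB site and 6.7% to the AP-1 site. The gamma-interferon activation site, held by 7.0% of windows, and the T-box site, held by 1.1%, had no match in either window.

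*Cxcl9* was at 9 and 17 in control Tconvs, 29 and 54 in CD70Tg Tconvs, 20 and 31 in control Tregs, and 95 and 115 in CD70Tg Tregs. The CD70Tg libraries were above the controls in both subsets, with estimated reads of 8 and 8, 10 and 89, 4 and 7, and 9 and 21 in the same order. It rose in Tregs by a log2 fold change of 1.87 (95% interval 0.90 to 2.84, adjusted p = 0.02, limma). In Tconvs the log2 fold change of 1.35 (0.38 to 2.32) did not pass the threshold (adjusted p = 0.085). The difference between the responses was 0.52 (standard error 0.65, adjusted p = 0.84). The call in Tregs was lost without the first control library (adjusted p = 0.17), without either CD70Tg library (0.063 and 0.095) and with limma-voom on estimated reads (0.11), while with the latter *Cxcl9* was called in Tconvs (2.05, adjusted p = 0.011). In the order of the groups, CD70Tg Tregs were above CD70Tg Tconvs (1.29, adjusted p = 0.032, a call lost under 5 of 13 settings), and the 3 lower groups were not told apart from their neighbours.

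*Cxcl10* was at 193 and 40 in control Tconvs, 64 and 242 in CD70Tg Tconvs, 165 and 136 in control Tregs, and 262 and 202 in CD70Tg Tregs. In Tconvs the groups overlapped, each with 1 high and 1 low library, while in Tregs the CD70Tg libraries were above the controls by less than a log2 fold change of 1. For *Cxcl10* limma gave a log2 fold change of 0.47 for Tconvs (95% interval -0.73 to 1.66, adjusted p = 0.75) and of 0.60 for Tregs (-0.59 to 1.80, adjusted p = 0.59). These intervals include both no change and a rise above the fold set for a call. No neighbours in the order of the groups were told apart for *Cxcl10*, the lowest adjusted p-value between neighbours being 0.24. Without the first control Tconv library, which was the high one, control Tregs were called above control Tconvs (1.78, adjusted p = 0.014), and without the second CD70Tg Tconv library CD70Tg Tregs were called above CD70Tg Tconvs (1.77, adjusted p = 0.034). Its exons share 5.9% of their length with *Art3* on the opposite strand, which cannot be told apart without strand. The genes most like *Cxcl10* over the 8 libraries were *Gcc1* (r = 0.977), *Fermt3* (0.963) and *Ighmbp2* (0.955).

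The 3 genes most like *Cxcl9* were *Aplp2* (r = 0.995), *Mir5107* (0.992) and *Cd74* (0.991). *Cd74*, the invariant chain of antigen-presenting cells, rose in Tconvs from 801 and 1509 to 2651 and 5290 (log2 fold change 1.76, adjusted p = 0.00035, limma) and in Tregs from 2364 and 3214 to 10219 and 11239 (1.96, adjusted p = 0.00027). It is 1 of 9 dendritic cell markers, of which 5 were tested. Called higher were 2 in Tconvs (*Itgax* and *Cd74*) and 4 in Tregs (*Zbtb46*, *H2-Aa*, *H2-Ab1* and *Cd74*). The shares of all tested genes called higher were 4.07% and 2.52%. The summed value of the list was 1346 to 2613 in control and 3613 to 7380 in CD70Tg Tconvs, and 2988 to 4452 in control and 13252 to 14597 in CD70Tg Tregs. The 4 markers under the minimum were low throughout, with *Flt3* between 7 and 32, *Clec9a* between 0 and 22, *Siglech* between 0 and 28 and *Cd209a* between 0 and 10 over the 8 libraries. In the CD70Tg Treg libraries, whose floors were 31.3 and 16.3, *Clec9a* was at 21 and 22, *Flt3* at 32 and 22, *Siglech* at 11 and 6 and *Cd209a* at 0 and 0. The study's methods describe removal of cells bearing CD11c or MHC class II, among other lineages, before T cells are sorted. The part of dendritic cell RNA in the values of *Cxcl9* was not tested.

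Markers of other cell types that make these ligands were followed in the same libraries, although the methods also describe removal of B cells, macrophages, NK cells, granulocytes and CD8+ cells before sorting. The sum of 6 NK cell markers was 426 to 462 in control and 84 to 97 in CD70Tg Tconvs, and 36 to 64 in control and 0 to 11 in CD70Tg Tregs. Most of this sum was *Klrb1c*, the 1 NK cell marker tested, at 403 and 423 in control and 75 and 68 in CD70Tg Tconvs. *Klrb1c* fell in both subsets (log2 fold change -2.45 in Tconvs and -2.57 in Tregs, adjusted p = 0.0027 and 0.0035, limma). *Ncr1*, another of the 6, was at 0 to 2 in every library. Of both CD8 T cell markers, *Cd8a* rose, from 17 and 28 to 508 and 608 in Tconvs and from 25 and 71 to 262 and 223 in Tregs (adjusted p = 9.7e-07 and 0.0012). *Cd8b1* was not called, at 703 and 653 and then 1055 and 982 in Tconvs, and at 292 and 346 and then 398 and 408 in Tregs. Of 6 tested macrophage and monocyte markers, *Cd68* was called higher in Tconvs (2.02) and *Itgam* in Tregs (1.13). The sum of the 8 markers was 1584 to 1603 in control and 1176 to 1533 in CD70Tg Tconvs, and 2940 to 3057 in control and 2973 to 3159 in CD70Tg Tregs. The sum of B cell markers was lower in CD70Tg Tconvs, at 64 to 97 against 158 to 182 in controls. In Tregs it was higher in CD70Tg mice, at 454 to 494 against 264 to 397 in controls. Of 2 tested B cell markers, 0 were called between CD70Tg and control mice in either subset (limma). Basophil and mast cell markers summed to 25 to 36 in control and 11 to 12 in CD70Tg Tconvs. In Tregs they summed to 14 to 25 in control and 17 to 32 in CD70Tg mice. Neutrophil markers summed to 226 to 254 in CD70Tg Tregs and to at most 32 elsewhere, with *S100a9* called higher in Tregs (3.88, adjusted p = 0.0011). The part of RNA from these cell types in the ligand values was not tested.

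*Ccl1*, *Ccl22* and *Ccl20* stayed under the minimum for testing. *Ccl1*, whose receptor CCR8 marks Tregs and type 2 cells, was at 0 and 3 in control Tconvs, 6 and 28 in CD70Tg Tconvs, 0 and 9 in control Tregs, and 21 and 44 in CD70Tg Tregs. Above the floor of their libraries were the second CD70Tg library of each subset, with an estimated 46 reads in Tconvs and 8 in Tregs, and no control library. With no minimum value, limma gave *Ccl1* a log2 fold change of 1.59 for Tconvs (adjusted p = 0.52) and of 2.09 for Tregs (adjusted p = 0.21). *Ccl22*, a ligand of CCR4 made mainly by dendritic cells and activated T cells, was at 3 and 0, 3 and 3, 5 and 5, and 11 and 0 in control Tconvs, CD70Tg Tconvs, control Tregs and CD70Tg Tregs, with at most an estimated 4 reads in a library. *Ccl20*, the CCR6 ligand of type 17 cells, was at 0 in all control libraries, at 0 and 1 in CD70Tg Tconvs, and at 11 and 6 in CD70Tg Tregs, each of these last values being a single read. With no minimum value, *Ccl20* was called higher in CD70Tg Tregs than in CD70Tg Tconvs (1.28, adjusted p = 0.019), on a single read in each of those Treg libraries. A response of *Ccl22* was not detectable at this depth.

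Receptors of the ligands were measured in the same cells, and 5 of the 7 reported here were tested. In Tconvs 3 of the 5 were called higher, *Cxcr3*, *Ccr6* and *Ccr8*, where 4.07% of all tested genes were. In Tregs 1 was, *Cxcr3*, where 2.52% of all tested genes were. The median log2 fold change of the 5 was 1.07 in Tconvs and 0.49 in Tregs. The responses of the subsets were not called different for *Ccr6* (-0.65, adjusted p = 0.49, limma) or *Ccr8* (-0.43, adjusted p = 0.67). *Cxcr3*, the receptor of CXCL9 and CXCL10, was at 2385 and 1821 in control and 4146 and 5978 in CD70Tg Tconvs, and at 2310 and 2137 in control and 6729 and 7112 in CD70Tg Tregs. *Cxcr3* rose by 1.25 among Tconvs (limma, adjusted p = 4.5e-05) and by 1.64 among Tregs (adjusted p = 1.4e-05).

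*Ccr6*, *Ccr8*, *Ccr4* and *Ccr3* had their higher values in Tregs. *Ccr6*, the CCL20 receptor, was at 49 and 72 in control Tconvs, 139 and 136 in CD70Tg Tconvs, 762 and 758 in control Tregs, and 1014 and 1131 in CD70Tg Tregs (log2 fold change in limma 1.14 for Tconvs, adjusted p = 0.0028, and 0.49 for Tregs, adjusted p = 0.21). *Ccr8*, the CCL1 receptor, was at 59 and 65, 113 and 163, 1223 and 1323, and 1913 and 2072 in the same order (1.07, adjusted p = 0.0024, and 0.64, adjusted p = 0.069). *Ccr4*, the CCL22 receptor, was at 535 and 676, 741 and 583, 3509 and 3516, and 2853 and 2447 (0.13, adjusted p = 0.75, and -0.41, adjusted p = 0.12). *Ccr3*, a CCL5 receptor, lay between 19 and 40 in Tconvs and between 248 and 316 in Tregs, and was not called between CD70Tg and control mice in either subset. *Ccr1*, which binds CCL3 and CCL5, and *Xcr1*, the XCL1 receptor, stayed under the minimum and were not tested. *Ccr1* was at 0 and 3 in control and 9 and 23 in CD70Tg Tconvs. In Tregs it was at 0 and 5 in control and 42 and 17 in CD70Tg mice, where the floors were 31.3 and 16.3. *Xcr1* was at 7 and 26 in control and 49 and 56 in CD70Tg Tconvs. In Tregs it was at 10 and 18 in control and 63 and 33 in CD70Tg mice. For both genes the CD70Tg libraries were above the controls of their subset.

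**Figure D4:**
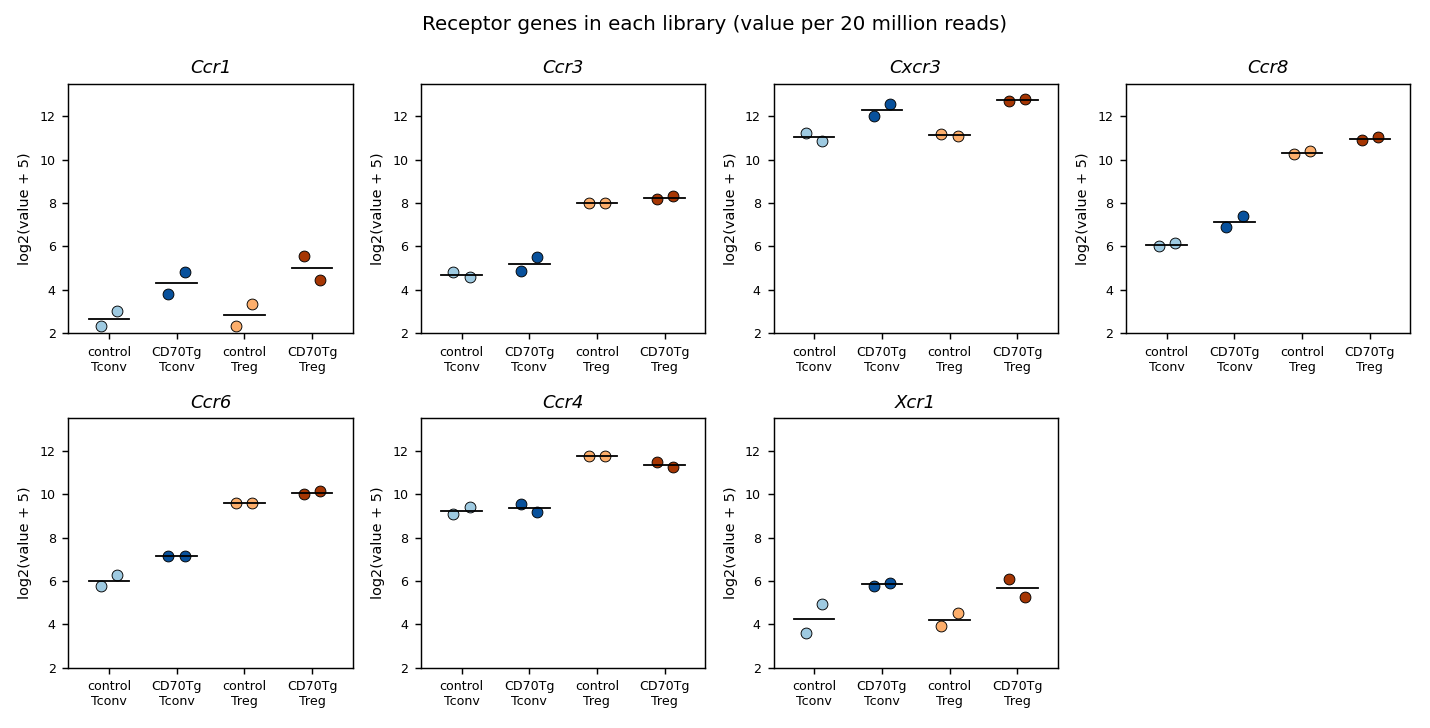
Value of 7 receptor genes of the ligands in each library, as log2(value + 5) with values per 20 M reads. Points are libraries, with 2 in each group, and bars are the means of the group. *Cxcr3* is higher in CD70Tg libraries of both subsets, and *Ccr8*, *Ccr6* and *Ccr4* are higher in Tregs than in Tconvs.

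Genes known to act on these ligands were followed as lists. Beside their counts stand the shares of all tested genes called higher, 4.07% in Tconvs and 2.52% in Tregs. Of 6 tested genes of the interferon-gamma axis, which drives *Cxcl9* and *Cxcl10* in many cells, 2 were called higher in Tconvs (*Ifng* and *Ifngr1*) and the same 2 in Tregs, with medians of 0.67 and 0.45. *Ifng* itself was at 105 and 72 in control Tconvs, 718 and 2111 in CD70Tg Tconvs, 64 and 71 in control Tregs, and 168 and 300 in CD70Tg Tregs, and rose by 3.75 on the log2 scale among Tconvs (limma, adjusted p = 6.9e-06) and by 1.67 among Tregs (adjusted p = 0.016). Of 4 tested regulators of the T-box, Runx and Klf families, which act on effector genes of T cells, 1 was called higher in Tconvs (*Eomes*, 3.33, adjusted p = 4.1e-09) and 2 in Tregs (*Eomes*, 4.09, adjusted p = 2.2e-09, and *Tbx21*, 1.28, adjusted p = 0.019). *Tbx21* had a log2 fold change of 0.97 in Tconvs (adjusted p = 0.066), and its responses were not called different (0.31, adjusted p = 0.87). The medians of these 4 were 0.84 in Tconvs and 0.91 in Tregs.

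Chemokine ligand genes outside the 9 were low in these cells. Of 29 such genes, 1 was tested, *Cxcl15*, which limma gave a log2 fold change of -0.08 for Tconvs (adjusted p = 0.96) and of 1.42 for Tregs (adjusted p = 0.098). Their summed value was 226 in both control Tconv libraries, 182 to 268 in CD70Tg Tconvs, 222 to 251 in control Tregs and 273 to 350 in CD70Tg Tregs. This total was below the value of *Ccl5* alone in every library.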

How the data were processed

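RNA of sorted Tconvs and Tregs was sequenced by the authors, who removed adapters with Trimmomatic 0.36, mapped reads to mm10 with STAR 2.5.3 and counted them with HTSeq 0.9.1. The deposited score values are these counts after scaling every library to a total of 20 M and rounding up. They sum to between 19963628 and 20164600 per library. The columns named KO were taken as controls.

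Here 4131 rows with clone-derived names, whose low values follow the step of another library, were left out, and of 97 names on several rows the row with the largest total was kept. Reads per library were estimated from the steps, with less certainty for the first control and the second CD70Tg Tconv library, whose steps are near or under 1. Genes that reached 60 in 2 or more libraries were tested on log2(value + 5) with limma 3.58.1 in R 4.3.3, in a model with 4 group means and a trend in the prior variance, with Benjamini-Hochberg adjustment over 12798 genes in each contrast. The deposited unit is no count, so the authors' DESeq2 test was not repeated. With 2 against 2 libraries an exact permutation test cannot go below 0.33 (two-sided), and none was made. The procedure was tested on simulated data. Gene positions are from GENCODE M21 (99.6% of identifiers matched).

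Genes named are the 9 ligands, their receptors, at most 4 tested genes of each further list with the largest change, the 3 genes most like each ligand by Pearson r and the genes within 250 kb, while *Foxp3* and further genes of the marker and type 17 lists, called or not, were named after their values were seen. A few genes covered by this rule are left out of the text. Members and lists were chosen with earlier results of these data known. Alternatives were pseudocounts of 1 and 20, no minimum value, a value above 10 in every library, median-of-ratios factors, limma-voom on estimated reads, a fit of each subset by itself, and leaving out each library in turn.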

Additional observations from a re-analysis of the deposited data

Results flagged for a closer look

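The response of *Ccl3* differed between the subsets by a test of the difference itself. The log2 fold change in Tregs minus that in Tconvs was -3.16, with 8.06 in Tconvs and 4.90 in Tregs (limma, adjusted p = 0.0097, and between 0.00025 and 0.34 under 13 alternative settings). The value of the difference lay between -3.93 and -2.39 over these settings, and under 4 of the 13 it did not pass the threshold. Its value rests on an estimated 8 reads in both control Tconv libraries and 15 in both control Treg libraries.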

How the results depend on the processing

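The calls of *Ccl3*, *Ccl4* and *Ccl5* in both subsets held under each alternative that tested them, with log2 fold changes of 6.75 to 9.01, 6.78 to 9.75 and 4.04 to 4.52 in Tconvs and 4.13 to 5.67, 4.17 to 6.33 and 2.72 to 3.90 in Tregs. A value above 10 in every library left only *Ccl5* and *Cxcl10* to test. In Tregs, *Xcl1* and *Cxcl9* each lost their call under 5 of 14 alternatives. The difference of *Ccl5* between the responses was called without the first control Treg library (-1.56, adjusted p = 0.0032, limma), and that of *Ccl4* with a pseudocount of 20 (-2.15, adjusted p = 0.036).

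Values that turned sign belonged to comparisons that were not called for that ligand in the fit reported. Without 1 library, the log2 fold change in Tconvs ranged from -0.60 to 1.54 for *Cxcl10* (with -0.45 among them) and from -0.10 to 0.37 for *Xcl1* (with -0.06). The difference of *Cxcl10* between the responses was -0.11 with limma-voom and -0.93 to 1.20 without 1 library (with -0.79, -0.05 and 0), and that of *Cxcl9* -0.02 with limma-voom. Between control Tregs and Tconvs *Ccl5* was at -0.07 with median-of-ratios factors and -0.53 to 0.65 without 1 library (with -0.02), and *Cxcl10* at -0.35 to 1.78 without 1 library. In CD70Tg mice *Cxcl10* was at -0.07 to 1.77. The cause was not tested.

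Counts over all genes moved more. With no minimum value 258 genes were called higher and 24 lower in Tconvs, 150 and 51 in Tregs, and 0 and 0 for the difference (limma), where 884 and 1361 had an unadjusted p-value under 0.05. On the genes that passed the minimum, limma-voom called 153 lower in Tconvs, 138 higher and 35 lower in Tregs, and 10 and 51 for the difference. Without 1 library the counts were 266 to 691 higher and 41 to 100 lower in Tconvs, 180 to 332 and 45 to 193 in Tregs, and 7 to 33 and 47 to 234 for the difference. The lowest counts came without the second CD70Tg Tconv library (266 and, for the difference, 47), the first control Tconv library (41), the first control Treg library (180 and 45) and the first CD70Tg Treg library (7). A lone library left in a group was taken to vary like the other groups. No paired analysis was possible because the columns of the table carry none of the replicate numbers of the sample titles. Depth limits *Ccl1*, *Ccl20*, *Ccl22* and the control levels of *Ccl3* and *Ccl4*.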

Other observations

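Further lists bear on these ligands, and 4.07% of all tested genes were called higher in Tconvs and 2.52% in Tregs. Of 5 tested NF-kB factors, which act on several chemokine genes, *Nfkb1* was called higher in Tconvs, from 3517 and 3081 to 6163 and 7295 (log2 fold change 1.03, adjusted p = 2.1e-05, limma), and 0 were called in Tregs, where 0.43 for *Nfkb1* had an adjusted p = 0.037 under the fold set for a call. *Nfkb2* was at 1797 and 1465 in control and 2680 and 3916 in CD70Tg Tconvs, and at 3417 and 3118 in control and 6458 and 6297 in CD70Tg Tregs, with log2 fold changes of 1.00 (adjusted p = 0.00037) and 0.97 (adjusted p = 0.00093) that did not exceed the fold set for a call. Of 5 type 17 genes 1 was tested, *Rora*, which was called higher in Tconvs (1.63, adjusted p = 5.8e-06), from 363 and 342 to 908 and 1344. In Tregs it was at 1155 and 1025 in control and 1798 and 1735 in CD70Tg mice (0.70, adjusted p = 0.019), under the fold set for a call, and the difference between the responses was not called (adjusted p = 0.084). The cytokine genes *Il17a*, *Il17f* and *Il22* were at 0 to 3 in every library and the receptor gene *Il23r* at 0 to 36.

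Of 6 genes for scavenging, trimming or storage of chemokines, 3 were tested and 0 called in either subset (limma). *Srgn*, whose product holds granule proteins and chemokines in stores, was at 6314 and 6581 in control and 7935 and 7962 in CD70Tg Tconvs, and at 11287 and 9917 in control and 13416 and 15056 in CD70Tg Tregs. The log2 fold changes of *Srgn*, 0.30 for Tconvs (adjusted p = 0.14) and 0.43 for Tregs (adjusted p = 0.034), were under the fold set for a call. *Dpp4*, which trims chemokines, had log2 fold changes of 0.28 and -0.10.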
